A study of Mus musculus with 23 samples.

Results

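The binding of p65 after 1 h of Kdo2-Lipid A (KLA) was compared between macrophages of mice that keep the corepressor NCoR and of mice that lack it in myeloid cells. The comparison rests on the 2 ChIP-seq peak lists made from KLA-treated cells, one of each genotype, which hold 30021 (wild type) and 22585 (knockout) of the 58278 peaks in the 5 lists of the series. All their 52606 peaks were taken as members. The other 3 lists were of p65 in untreated cells of both genotypes, and of LXRβ in the line RAW264.7 given 1 µM of the agonist GW3965 for 2 h. These 3 lists were used only to describe the members.

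The cells were primary peritoneal macrophages elicited with thioglycollate in male C57BL/6 mice of 6 to 8 weeks and collected 3 to 4 days later. Both genotypes carried NCoR fl/fl alleles. Wild type mice were Lys M-Cre -/- and knockout mice were Lys M-Cre +/-. Lys M drives the Cre recombinase in myeloid cells. Cells were kept overnight in medium with 0.5% fetal bovine serum and then given 100 ng/ml KLA for 1 h. How many mice went into each library was not stated, and the peak lists do not measure NCoR itself or the efficiency of its deletion. Each genotype was 1 library, so no difference has a replicate check, and no test between genotypes was run. Intervals of shares, of single heights and of ratios at single sites or windows cover counting error only. Intervals of median ratios are order statistics over sites, which treat the sites as independent. They describe the sites of these 2 libraries and measure neither counting error nor a difference between genotypes.

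p65, also called RelA, is a subunit of NF-κB. In resting cells it is held in the cytoplasm by IκB proteins. KLA, the lipid A part of endotoxin, activates the receptor TLR4, after which IκB is degraded and p65 enters the nucleus and binds enhancers and promoters of inflammatory genes. NCoR is a scaffold that brings histone deacetylase to nuclear receptors and other transcription factors and keeps their target genes low. The comparison asks whether p65 reached the same sites, and in the same amount, when the corepressor was missing.

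The wild type library held 2120392 tags and the knockout library 1673506 tags, and 17.57% and 17.66% of them lay in peaks. Peak height below is the normalized tag count that the authors deposited, scaled to 10000000 tags per library. For ratios between genotypes, the authors' findPeaks score, a whole number, was used as a count of tags. It was divided by the total tags of its library and is given on the same scale. Tags given for sites and windows below are such scores. In the wild type list they exceeded the tags behind the normalized count by up to 5 at a peak. On the common scale 1 wild type tag counts 4.72 and 1 knockout tag 5.98. Positions are on mouse build mm9, and sites are named by position, since gene models of that build were not used here.

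p65 peaks were about as many in knockout as in wild type macrophages. Above a height of 30, wild type cells had 20345 peaks and knockout cells 19353. The limit fell between the 33.0 of the lowest wild type peaks inside it (2919 peaks) and the 28.3 of the tallest outside (3805 peaks). For the knockout list these heights were 35.9 (3167 peaks) and 29.9 (3232 peaks). The median height of the peaks kept was 51.9 in wild type (quartiles 37.7 and 84.9) and 59.8 in knockout cells (41.8 and 89.6).

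By the normalized tag count, which genotype had more peaks changed with the limit. Above 40 the wild type had 15089 and the knockout 16186, and above 50 the numbers were 11444 and 11526. Above 60 the wild type had more, with 8997 against 8580. The knockout had more above 100, with 4024 against 3761. Above 150 the wild type was ahead again, with 1813 against 1619, as it was above 200 (857 and 792), above 300 (231 and 221) and above 400 (67 and 62). The knockout to wild type ratio of peak numbers stayed between 0.893 (above 150) and 1.16 (above 500, with 22 and 19 peaks). Heights come in whole tags, whose size differs between the libraries, so a limit includes or drops a whole step of one list at a time. With heights taken from the score, the wild type had more peaks at 9 of the 11 limits, so the order above 50, 75 and 100 turned. This change of measure raised wild type heights only, because in the knockout list the score equals the tags behind the normalized count. The numbers were then 21518 wild type and 19353 knockout peaks above 30, 12312 and 11526 above 50, 6941 and 6508 above 75, and 4034 and 4024 above 100. The knockout had more above 40, with 16186 against 16137, and above 500, with 22 against 21.

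**Figure D1:**
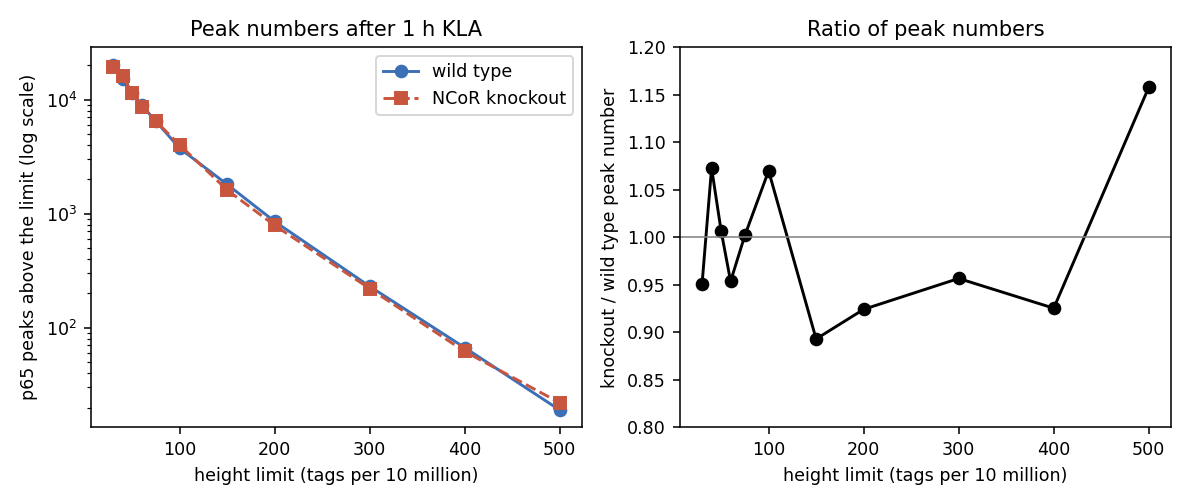
Left, the number of p65 peaks above each height limit (scaled tags, log scale for the number) in wild type (circles) and NCoR knockout (squares) macrophages after 1 h of KLA, 1 library each. Right, the ratio of the 2 numbers, which lies between 0.893 and 1.16 and crosses 1 several times as the limit rises. Heights are the normalized tag count.

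The tall peaks of each genotype were nearly all in the list of the other. Of wild type peaks above 30, 13903 (68.3%, 95% Clopper-Pearson interval 67.7 to 69.0) overlapped a knockout peak by 1 bp or more, and of knockout peaks above 30, 14978 (77.4%, 76.8 to 78.0) overlapped a wild type peak. Above 100 the shares were 96.6% (95.9 to 97.1) of 3761 wild type and 97.5% (97.0 to 98.0) of 4024 knockout peaks. All 231 wild type peaks above 300 were found in the knockout list, which allows a missing share of up to 1.58% (upper Clopper-Pearson bound), and all 221 knockout peaks above 300 were found in the wild type list, which allows up to 1.66%.

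Low peaks were often missing from the other list in both directions. Between 30 and 40 a knockout peak was found for 42.5% of 5256 wild type peaks, and a wild type peak for 51.8% of 3167 knockout peaks. Between 60 and 100 the shares were 83.5% (82.5 to 84.5) and 89.5% (88.6 to 90.4). Both lists needed 5 tags for a peak, which is a height of 29.9 in the shallower knockout library. A wild type peak just above 30 thus lay close to the lowest height that could be listed in the knockout, so a loss of binding was not detectable there. The limit was not the same in the other direction, where the lowest listed wild type height was 18.9. Of the 3167 knockout peaks between 30 and 40, 1528 had no overlapping wild type peak.

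**Figure D2:**
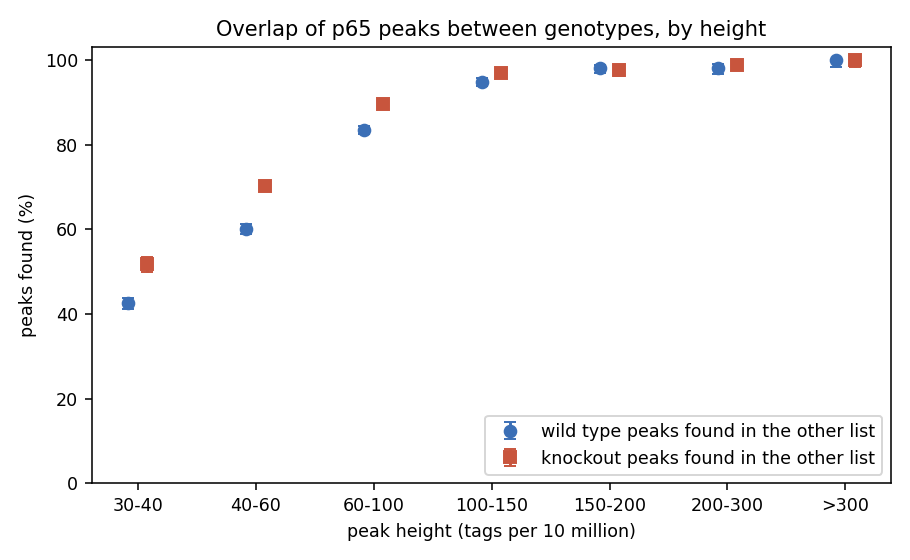
Share of p65 peaks of each genotype that overlap a peak of the other by 1 bp or more, by height of the peak in scaled tags, with 95% Clopper-Pearson intervals. Wild type peaks (circles) rise from 42.5% between 30 and 40 to 100% above 300, and knockout peaks (squares) from 51.8% to 100%.

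At the shared sites the knockout and wild type summits lay close together and looked alike. The 16203 wild type peaks with an overlapping knockout peak were paired with the one of nearest centre. The centres were a median of 31 bp apart (quartiles 14 and 55 bp), and 71.1% lay within 50 bp. The focus ratio, the fraction of tags whose strand fits their side of the summit, as the authors deposited it, had a median of 0.765 in both libraries. The median fold over the surrounding 10000 bp was 29.1 in wild type and 29.3 in knockout cells.

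Heights at the shared sites were near equal. The median knockout to wild type score ratio was 1.04 (95% interval 1.03 to 1.04, by order statistics over sites), with quartiles of 0.806 and 1.27. Summed over all shared sites, the ratio was 0.996. A ratio of 2 or more was found at 735 sites, 4.54% of the shared sites, and a ratio of 0.5 or less at 484 sites, 2.99%. An exact interval of the ratio from the tags of both libraries lay wholly above 1 at 230 sites (1.42%) and wholly below 1 at 272 sites (1.68%). These intervals compare 2 libraries, not the genotypes.

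The ratio depended on the height of the site. Sites with a mean height of the 2 libraries up to 40 had a median ratio of 1.11 (quartiles 0.950 and 1.48, 3077 sites). In this class a ratio of 0.5 or less could not occur, because a shared site needs 5 tags in each library. The median was 0.996 between 60 and 100 (4653 sites), 0.963 between 100 and 150 (2069 sites), 0.942 between 150 and 200 (890 sites), 0.950 between 200 and 300 (577 sites) and 0.979 above 300 (225 sites). The quartiles narrowed to 0.882 and 1.11 in the class above 300, where no site was past 2-fold in either direction.

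The 3761 shared sites with a mean height above 100 are measured best, and their median ratio was 0.959 (0.950 to 0.969). Of these, 48 had a ratio of 2 or more (1.28%) and 85 a ratio of 0.5 or less (2.26%). The small deficit depended on the measure. With the authors' normalized tag count the median of the same sites was 0.986, and per bp of peak width it was 0.879, since a knockout peak spans 144 bp and a wild type peak 132 bp. The wild type score exceeded the tags behind the normalized count by 0 to 5 at each peak and by 1.04 times in sum, while in the knockout list both were equal.

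**Figure D3:**
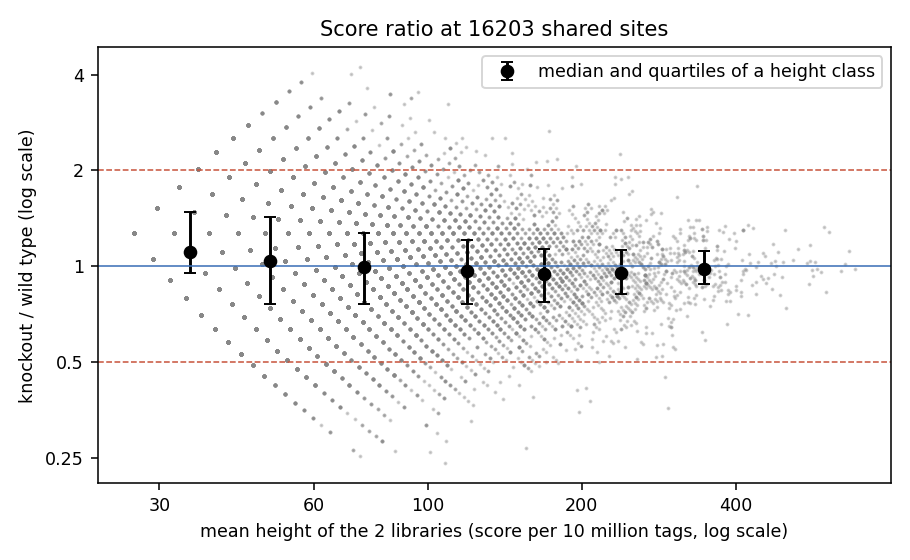
Knockout to wild type score ratio (log scale) of each shared p65 site against its mean height in the 2 libraries (scaled score, log scale). Black points and bars are the median and quartiles of 7 height classes, which narrow from 0.950 and 1.48 in the lowest to 0.882 and 1.11 in the highest, and dashed lines mark ratios of 0.5 and 2.

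The 5 sites with the highest mean height were of like height in both genotypes. The first, at chr19:6945450-6945582, held 146 wild type and 113 knockout tags, which is 688.6 and 675.2 on the common scale. The next, at chr17:29532456-29532588, held 133 and 117 tags, or 627.2 and 699.1, and overlapped an LXRβ peak of 9.10. The ratio was 0.981 (0.760 to 1.26) at the site on chromosome 19 and 1.11 (0.862 to 1.44) at that on chromosome 17, so neither interval left out 1.

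Another 2 of the 5 also lay on chromosome 17. The site at chr17:13203058-13203190 had a ratio of 1.02 (0.784 to 1.32), from 646.1 in wild type and 657.3 in knockout cells. At chr17:18037852-18037984 the ratio was 0.964 (0.741 to 1.25), from 650.8 and 627.4. Both had an untreated wild type peak (115.8 and 64.3), and the second also an untreated knockout peak (76.3). The last, at chr2:98507226-98507358, held 532.9 and 681.2, a ratio of 1.28 (0.977 to 1.67). Its scaled input was 13.1 tags, against 0.3 to 1.0 at the other 4, and the untreated peaks there stood at 1248 (wild type) and 1094 (knockout).

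Single sites with the highest and lowest ratios were taken from the deeper part of the shared sites. They had 30 or more tags in the library where they were higher, which is a height of 141.5 in wild type but 179.3 in knockout cells, so the rule itself lets in more sites that are lower in the knockout and leaves out low sites. It kept 2118 sites, and their heights and the balance of high and low ratios among them are set by the rule. Over all shared sites, 459 of the 735 with a ratio of 2 or more had a mean height up to 60. So had 151 of the 484 with a ratio of 0.5 or less. Of the 16203 shared sites, 3077 had a mean height up to 40 and 4712 one between 40 and 60. Up to 40 a ratio of 0.5 or less could not occur, so the low sites do not show which direction was more frequent. Among the 2118 sites the largest ratio was 2.66 (1.53 to 4.78), at chr10:95965199-95965331, with 20 wild type and 42 knockout tags (94.3 and 251.0 scaled). At chr9:65383013-65383145 the ratio was 2.53 (1.38 to 4.84), with 17 and 34 tags. This site also had an LXRβ peak (15.5) and 15 other wild type peaks within 50 kb. At chr1:21068627-21068759 the ratio was 2.53 (1.35 to 4.95), with 16 and 32 tags and no other wild type peak within 50 kb.

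The fourth was the site of the tallest p65 peak of untreated knockout cells. At chr17:4626271-4626403 the KLA libraries held 19 wild type and 34 knockout tags, a ratio of 2.27 (1.26 to 4.21). Untreated knockout cells had a peak of 1743 there and untreated wild type cells none that overlapped. An LXRβ peak (12.7) also overlapped it. The fifth, at chr1:174244466-174244598, was the tallest of these sites, with 31 and 55 tags (146.2 and 328.7 scaled) and a ratio of 2.25 (1.42 to 3.61). Apart from the site on chromosome 17, none of the 5 had an untreated peak in either genotype. Of all 16203 shared sites, 15133 had no untreated peak and 850 had an LXRβ peak.

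The 5 lowest ratios rested on 7 to 11 knockout tags, which follows from the rule. At chr5:118858133-118858265 there were 37 wild type and 7 knockout tags (174.5 and 41.8 scaled), a ratio of 0.240 (0.0902 to 0.545). The knockout summit lay 117 bp away from the wild type one. At chr9:106163524-106163656 there were 34 and 7 tags, a ratio of 0.261 (0.0976 to 0.598). The site at chrX:166411306-166411438 held 52 and 11 tags, a ratio of 0.268 (0.126 to 0.520), with 2.1 scaled input tags. At chr3:126449481-126449613 the ratio was 0.282 (0.113 to 0.616), and at chr5:104454583-104454715 it was 0.298 (0.119 to 0.656). None of the 5 overlapped an untreated p65 peak or an LXRβ peak. Most shared sites did not either, since 15133 of all 16203 had no untreated peak and 15353 no LXRβ peak. These 10 sites were chosen as the extremes of 2118, and a largest or smallest ratio of so many is far from 1 by choice.

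Sums over 100 kb put more tags behind a ratio than single sites do. A total of 398 windows held 5 or more shared sites and 200 or more shared tags. Their summed ratio had a median of 0.992, quartiles of 0.907 and 1.09, and ran from 0.538 to 1.69. No window reached 2-fold in either direction. The interval of the summed ratio lay above 1 in 18 windows (4.52%) and below 1 in 27 windows (6.78%). The 6 windows described next were chosen after their values were seen, as the 3 lowest and the 3 highest.

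The lowest window, 100 kb from position 31200001 of chromosome 15, held 153 wild type and 65 knockout tags at 6 shared sites, a ratio of 0.538 (0.396 to 0.724). All 6 sites were lower in the knockout, with ratios from 0.333 to 0.724. In the window from 166400001 of chromosome X, the 6 shared sites held 220 and 102 tags, a ratio of 0.587 (0.460 to 0.746), and 5 of them were lower in the knockout. The median scaled input there was 1.4 tags, against 0.2 over all shared sites. In the window from 87300001 of chromosome 3, the ratio was 0.677 (0.521 to 0.876), from 174 and 93 tags. Its 4 tallest sites had ratios from 0.514 to 0.767, and the other 2, with 6 to 9 tags, had 0.985 and 1.27.

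The highest window began at 45300001 of chromosome 16. Its 7 shared sites held 97 wild type and 129 knockout tags, a ratio of 1.69 (1.28 to 2.22), and all 7 were higher in the knockout, with ratios from 1.27 to 2.53. The site at chr16:45350041-45350173 had a scaled score of 75.5 in wild type and 155.4 in knockout cells, and that at chr16:45390026-45390158 had 37.7 and 95.6. The window from 10900001 of chromosome 16 had a ratio of 1.41 (1.10 to 1.80), with 6 of 7 sites higher in the knockout. In the window from 127700001 of chromosome 10, with a ratio of 1.38 (1.10 to 1.74), 3 neighbouring sites had ratios of 1.75, 1.65 and 1.22, and the other 2 had 0.921 and 0.815. Of the 37 shared sites in these 6 windows, 1 overlapped an untreated p65 peak and none an LXRβ peak. Such overlaps were rare over all 16203 shared sites too, of which 15133 had no untreated peak and 15353 no LXRβ peak.

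**Figure D4:**
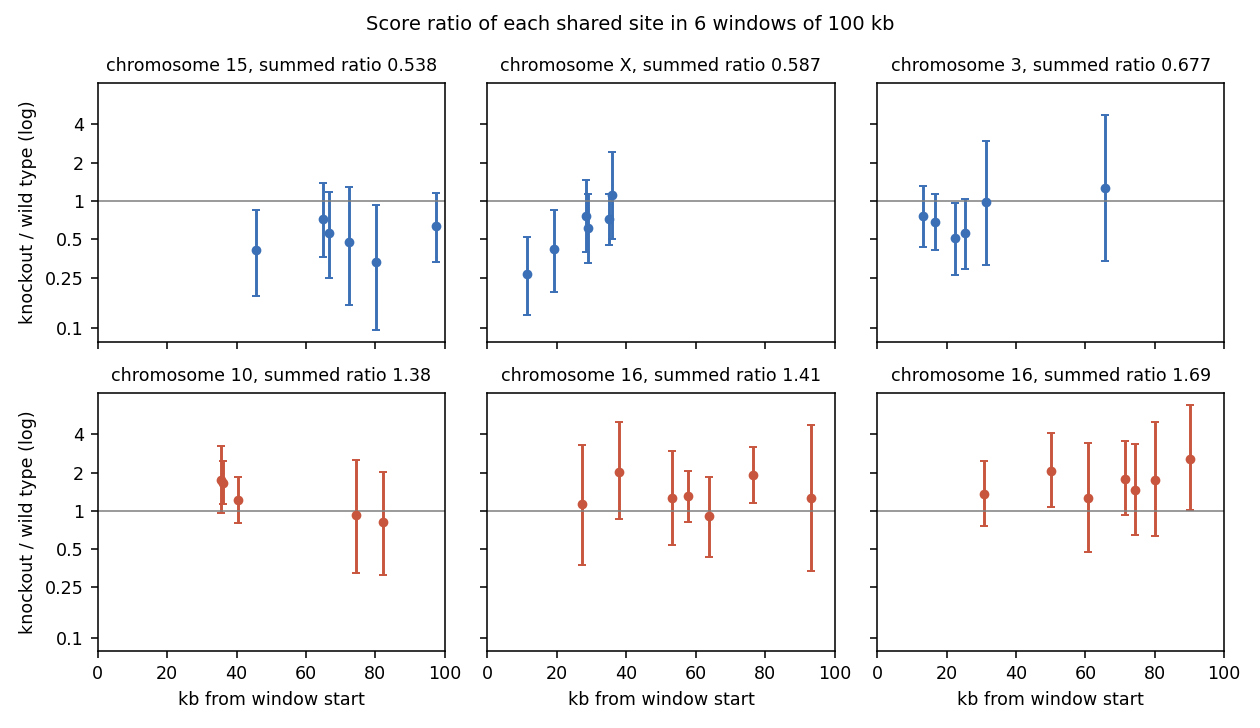
Knockout to wild type score ratio (log scale) of each shared p65 site in the 3 windows of 100 kb with the lowest (top) and the 3 with the highest (bottom) summed ratio, by distance from the window start, with exact 95% intervals from tag counts. All 6 sites of the chromosome 15 window lie below 1 and all 7 of the highest chromosome 16 window above it, most with intervals that reach 1.

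Ratios of close neighbours were weakly related. Among shared sites with a mean height above 60, the log2 ratios of adjacent sites had a Pearson correlation of 0.129 at gaps up to 2 kb (918 pairs) and 0.121 at 2 to 10 kb (1482 pairs). At 10 to 50 kb (2118 pairs) it was 0.000166. All pairs come from the same 2 libraries and are not replicates. The windows and these gap classes were set after seeing the data.

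The ratio was then described by what the sites held without KLA. Of the 16203 shared sites, 15133 overlapped no untreated peak, and their median ratio above a mean height of 100 was 0.963 (0.950 to 0.975, 3264 sites). The sites listed in untreated wild type cells only had a median of 0.894 (0.845 to 0.928, 170 sites). Those listed in untreated knockout cells only had 0.961 (0.922 to 1.01, 208 sites), and those listed in both had 0.958 (0.905 to 1.01, 119 sites). Sites with a wild type untreated peak were also the taller ones, with a median mean height of 183.3 in the wild type only class against 140.1 for sites with none. The sites listed in both, whose median ratio was 0.958, were taller still, with a median mean height of 218.7. The part of height in these ratios was not tested. The median of the sites listed in untreated knockout cells only thus lay within the interval of the sites listed in neither. The untreated lists rest on few tags per peak, and the difference between classes was not tested.

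Sites shared with LXRβ had a slightly lower ratio. LXRβ is a nuclear receptor for oxysterols and a partner of NCoR, and its peaks came from RAW264.7 cells treated with the agonist GW3965 for 2 h, so overlap means the same position and not the same cell. The 850 shared p65 sites with an LXRβ peak had a median ratio of 0.981 (0.950 to 0.992), against 1.04 (1.03 to 1.06) at the 15353 without. Above a mean height of 100 the medians were 0.945 (0.912 to 0.982, 290 sites) and 0.960 (0.950 to 0.971, 3471 sites), a smaller gap. Between 60 and 100 they were 0.950 (0.905 to 0.996, 273 sites) and 0.996 (0.985 to 1.01, 4380 sites). The difference was not tested. Among sites with an LXRβ peak 4.35% had a ratio of 2 or more and 2.59% a ratio of 0.5 or less, close to the 4.54% and 2.99% of all shared sites.

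Crowded and isolated sites did not stand far apart. Shared sites with no other wild type peak above 30 within 50 kb had a median ratio of 1.09 (2226 sites), and those with 7 or more such neighbours 1.00 (2951 sites). Their median mean heights were 49.8 and 80.8. Above a mean height of 100 the medians were 0.985 (0.950 to 1.04, 257 sites) and 0.950 (0.939 to 0.969, 1085 sites). By the score, sites with input signal were the one class described with a median above 1 among the tall sites. The 93 sites with 1 or more scaled input tags had a median ratio of 1.13 (1.00 to 1.27), and the 43 of them with a mean height above 100 had 1.07 (0.919 to 1.25). The tall sites with less input had 0.958 (0.950 to 0.969, 3718 sites). Per bp of peak width the medians of these tall sites were 0.984 with input and 0.879 with less. Between 60 and 100 the score medians were 0.975 (31 sites) with input and 0.996 (4622 sites) with less. By chromosome the median over all shared sites ran from 0.992 on chromosome 16 to 1.07 on chromosome 18, and above a mean height of 100 from 0.898 on chromosome 19 (122 sites) to 0.991 on chromosome 9 (188 sites).

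**Figure D5:**
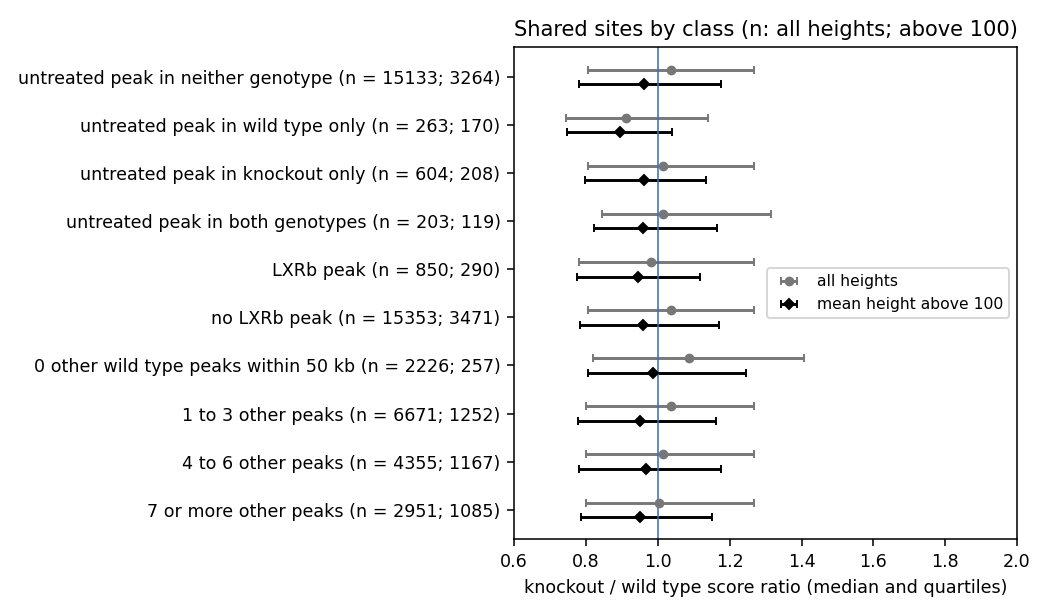
Median and quartiles of the knockout to wild type score ratio at shared p65 sites by class, for sites of all heights (grey circles) and with a mean height above 100 (black diamonds). The medians plotted for a mean height above 100 lie between 0.894, for sites with an untreated peak in wild type only, and 0.985, for sites with no neighbour within 50 kb.

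Peaks with no counterpart were mostly low. Of wild type peaks above 30, 5221 (25.7%) had no knockout peak centred within 500 bp, and of knockout peaks 3221 (16.6%) had no wild type peak. Their median heights were 42.4 and 41.8, against 66.0 and 65.7 for the peaks found. The knockout library was the shallower one, and only its list was filtered against an input. The part of either in the unequal shares was not tested. Above 100 only 44 wild type peaks (1.17%, 0.851 to 1.57) and 17 knockout peaks (0.422%, 0.246 to 0.676) had none. These 44 and 17 peaks had a low fold over their local surroundings, with medians of 18.7 and 9.36 against 37.9 and 36.0 for the peaks of that height that were found. A 4-fold excess over the local 10000 bp was required for listing, and its part in these absences was not tested.

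The tallest wild type peaks without a knockout counterpart had knockout peaks not far away. The first, at chr9:3000063-3000195, had a height of 221.7 and a knockout peak of 113.5 centred 521 bp away. It was already listed untreated, at 488.9 in wild type and 394.3 in knockout cells. The wild type list gives no input for this peak. The 11 shared sites of its 100 kb window, from 3000001, had a median of 5.7 scaled input tags, against 0.2 over all shared sites. At chr10:37057140-37057272 the height was 188.6, with a knockout peak of 579.6 centred 990 bp away. That knockout peak overlapped a different wild type peak, of 556.5. At chr4:126115659-126115791 the height was also 188.6, with a knockout peak of 215.1 at 588 bp. The peak at chr2:128186471-128186603 (174.5) had one of 125.5 at 983 bp. The peak at chr15:31278885-31279017 (174.5, Poisson interval of its score 122.9 to 240.5) lay in the chromosome 15 window of lowest ratio. Its nearest knockout peak, at 1174 bp, was at the lowest listed height of 29.9.

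The tallest knockout peaks without a wild type counterpart were lower. The first, at chr11:23670888-23671032, reached 161.3, with a wild type peak of 287.7 centred 519 bp away and an untreated wild type peak of 128.7 at the site. That wild type peak of 287.7 overlapped a different knockout peak, of 209.1. The knockout peaks at chr10:37053787-37053931 and chr8:87504929-87505073 both reached 155.4. Their fold over local signal was 4.45 and 5.09, near the required 4-fold, and their nearest wild type peaks were 188.6 at 3347 bp and 160.3 at 1225 bp. The wild type neighbour of the chromosome 10 peak is the one named above at 37057140, with a fold of 5.76, so in this region each list left out a peak that the other held. The peaks at chr5:93697968-93698112 (137.4) and chr1:58783951-58784095 (125.5) had their nearest wild type peak at 805 bp, of height 56.6, and at 1163 bp, of height 155.6.

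Low peaks without a counterpart had lower shares with an untreated knockout peak than low peaks that were found, with intervals that did not overlap and no test of the difference. Between heights of 30 and 60, which holds most of them, an untreated knockout peak was present at 2.54% (2.10 to 3.03) of 4611 wild type peaks with none and at 3.63% (3.17 to 4.14) of 5897 found. For knockout peaks the shares were 2.19% (1.69 to 2.79) of 2916 and 3.48% (3.07 to 3.94) of 6976. The trait was not particular to the untreated knockout list, since shares with an untreated wild type peak were lower too. Among these wild type peaks they were 0.6072% (0.4039 to 0.8764) with none and 1.187% (0.9265 to 1.497) found, without overlap. Among the knockout peaks they were 0.5830% (0.3400 to 0.9318) and 1.118% (0.8848 to 1.394), where the intervals overlapped. LXRβ was present at 2.09% (1.60 to 2.68) and 4.03% (3.58 to 4.52) of these knockout peaks, and at 3.21% (2.72 to 3.76) and 3.80% (3.33 to 4.32) of the wild type peaks, where the intervals overlapped. The peaks found were also taller within the class, with medians of 42.4 against 37.7 in wild type and 47.8 against 41.8 in knockout cells, and the part of height was not tested. Between 60 and 100 the intervals overlapped in each case. An untreated knockout peak was present at 2.65% (1.49 to 4.33) of 566 wild type peaks with none and at 4.71% (4.10 to 5.38) of 4374 found. For knockout peaks these shares were 5.21% (2.94 to 8.44) of 288 and 4.73% (4.10 to 5.43) of 4078. LXRβ was present at 5.12% (3.46 to 7.28) and 5.62% (4.96 to 6.35) of these wild type peaks, and at 3.82% (1.92 to 6.73) and 5.25% (4.58 to 5.98) of the knockout peaks. The knockout list was called against an input and the wild type list without one. On chromosome Y the wild type list held 14 peaks, 8 of them above 30, and the knockout list 1, and whether the input filter made that difference was not tested.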

How the data were processed

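p65 ChIP-seq libraries of KLA-treated wild type and NCoR knockout macrophages were compared (1 library each). The submitters' processing notes name Bowtie 0.12.7, HOMER and the build mm9. Each library's peaks come from its own findPeaks run, in factor mode at a false discovery rate of 0.001, counting at most 1 tag per bp, per the file headers. The knockout list used a wild type input and a genome size of 4000000000. The wild type list used no input and 2000000000. The input filter removed 1902 of 27603 putative knockout peaks, and the local filter 3116. In the wild type list the local filter removed 5916 of 35937.

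The deposited normalized tag count is a signal in tags, scaled to 10000000 tags per library. The deposited findPeaks score was used as a count of tags. It differed from the tags behind the signal at 13561 wild type peaks. Focus ratio (a fraction), fold over local signal (a ratio) and scaled input tags (a score) are the authors' deposited values, used to describe peaks. The deposited p-values entered no comparison.

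Overlap (1 bp or more) and ratios were computed with scipy 1.17.1, pandas 2.3.3 and numpy 2.4.6 under Python 3.11.15. Overlap numbers were the same with bedtools 2.31.1. On a simulated knockout list of 22932 peaks, 100% of the partners were found, and 100% of 200 sites planted 3-fold higher had a ratio of 2 or more. That list was the wild type list moved by less than a peak width, so each peak overlapped its own copy by design. The planted sites all had 30 or more wild type tags. The simulation was thus a check of the code only and does not bear on low sites. Shares have exact Clopper-Pearson intervals, and single heights exact Poisson intervals. Ratios of single sites and windows have exact intervals from the split of tags, and median ratios order-statistic intervals over sites. All are at 95%. Tags are not independent molecules. Named sites were the 5 shared sites of highest mean height, the 5 highest and 5 lowest ratios among sites with 30 or more tags in the higher library, and the 5 tallest peaks of each genotype with none of the other within 500 bp. Members, lists and rules were chosen with earlier results of these data known. Gene lists and motif counts that were planned for an mm9 annotation and genome are not analysed here, and no sequence is shown.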

Additional observations from a re-analysis of the deposited data

How the results depend on the processing

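No paired analysis was possible because each genotype was 1 library, and no library could be left out. By the normalized tag count, the order of the genotypes in peak number reversed with the limit. The wild type excess of 992 peaks above 30 became -1097 above 40, -82 above 50 and -263 above 100, and it was 194 above 150 and 2165 above 30 with heights from the score. Taking the score raised wild type heights only. By the score the wild type had more peaks at 9 of 11 limits, above 50 (12312 and 11526) and 100 (4034 and 4024) included, and fewer above 40 and 500. The limits of 40 and 150, and the excess as a measure, were added after seeing the data, unlike the peak numbers above 30 it is made from. The numbers behind it were 11444 and 11526 above 50, 3761 and 4024 above 100 and 1813 and 1619 above 150 (wild type and knockout). The share of wild type and of knockout peaks found in the other list was 77.3% and 82.4% above 40, 84.5% and 89.2% above 50, 96.6% and 97.5% above 100, and 98.35% and 98.39% above 150. It was 57.1% and 64.2% with a reciprocal overlap of 50%, 64.78% and 73.15% with centres at most 100 bp apart, 74.3% and 83.4% at most 500 bp apart, and 65.05% and 68.38% with a partner also above 30. With heights from the score the wild type share was 66.6%. The median ratio of 1.04 fell below 1 per bp of peak width (0.950, where 427 ratios reached 2 and 806 were at most 0.5), with both heights above 30 (0.985, where 324 ratios reached 2) and with both above 100 (0.950, where 4 ratios reached 2 and 17 were at most 0.5). Selecting on both heights drops sites near the thresholds. It was 1.09 with the normalized tag count and 1.02 with a reciprocal overlap of 50%. Restricting to autosomes and X, scaling by tags in peaks and removing sites with 1 or more scaled input tags kept every value computed under them within its interval or within 1.5 times. The 5 tags needed for a peak limit what can be said of low heights.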
